A study of Zea mays with 48 samples.

Results

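Binding of ZmCCA1 in the maize F1 hybrid MB was set against the mean of its parents, the inbred lines B73 and Mo17, at loci where all 3 genotypes had a peak. A locus was an MB peak that overlapped at least 1 B73 peak and at least 1 Mo17 peak by 1 bp or more, and where a parent had several such peaks its highest value at each time point was taken. Of 1874 MB peaks, 537 met this rule (28.7%), out of 10136 peaks in the whole series. Another 344 MB peaks met a B73 peak only, 152 met a Mo17 peak only, and 841 met neither.

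CCA1 is a MYB-type transcription factor of the plant circadian clock that is most abundant in the morning and binds the evening element and related sites in the promoters of clock and output genes. If an F1 hybrid simply combines its parental genomes, an additive trait lies at the mid-parent value, the mean of the parents. A hybrid level outside the parental range is called above the high parent or below the low parent, and such nonadditive levels are often examined beside hybrid vigour.

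MB carries Mo17 as the female parent and B73 as the pollen parent, since the female is written first. The reciprocal hybrid BM was not used here. Aerial tissues of MB, B73 and Mo17 seedlings were collected at 5 days after planting, in cycles with 16 h of light, at ZT3, ZT9 and ZT15 (hours after dawn). The antibody was raised against the MYB domain of ZmCCA1b, and could also recognise a full-length ZmCCA1a that includes this domain, so the signal is not specific to 1 of the proteins. Each genotype and time point had 2 biological replicates of ChIP and of input DNA, 18 ChIP and 18 input libraries for the 3 genotypes.

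The unit throughout is log2(ChIP/Input), the log2 ratio of DNA recovered with the antibody to unprecipitated DNA, so that a difference of 1 is a doubling. Each list holds a single value for a peak at each time point, with no replicate values and no read counts. Consequently no value had an error of its own, no difference could be tested against replicate spread, and the likeness of replicates could not be checked. Intervals below are 95% intervals over loci, Wilson for shares and order statistics for medians. They cover counting error only, and loci are not replicates of a genotype.

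The lists also differed in level over all their peaks. The median was 1.52, 1.44 and 0.95 in the MB list at ZT3, ZT9 and ZT15, against 1.48, 1.56 and 1.33 in the B73 list (3364 peaks) and 1.34, 1.68 and 1.17 in the Mo17 list (2102 peaks). The MB list median therefore lay 0.11 above the mean of the parental list medians at ZT3, and -0.18 and -0.30 from it at ZT9 and ZT15. Results are given as deposited, and the overall shares, medians and phases also after centring every list on its own median at each time point. Centring takes 0.11, -0.18 and -0.30 off every difference from mid-parent at ZT3, ZT9 and ZT15, so it moves the medians of all groups of loci alike and leaves the gaps between groups at a time point as they are. Shares within groups of loci are given after centring where they changed most. Values of single loci are as deposited. Whether these list levels reflect the plants or the libraries cannot be told apart in these files.

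At the 537 loci, MB binding was slightly higher than mid-parent in the morning and lower later in the day. The median was 1.93 in MB and 1.84 at mid-parent at ZT3, 1.57 in MB and 1.88 at mid-parent at ZT9, and 1.48 in MB and 1.73 at mid-parent at ZT15. The median of MB minus mid-parent was 0.093 at ZT3 (0.067 to 0.13), -0.29 at ZT9 (-0.32 to -0.25) and -0.32 at ZT15 (-0.35 to -0.26). MB was higher than mid-parent at 341 loci at ZT3 (63.5%), at 147 at ZT9 (27.4%) and at 118 at ZT15 (22.0%). After centring, these medians were -0.015, -0.12 and -0.018, so the direction at ZT3 turned and little of the ZT15 difference was left.

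**Figure D1:**
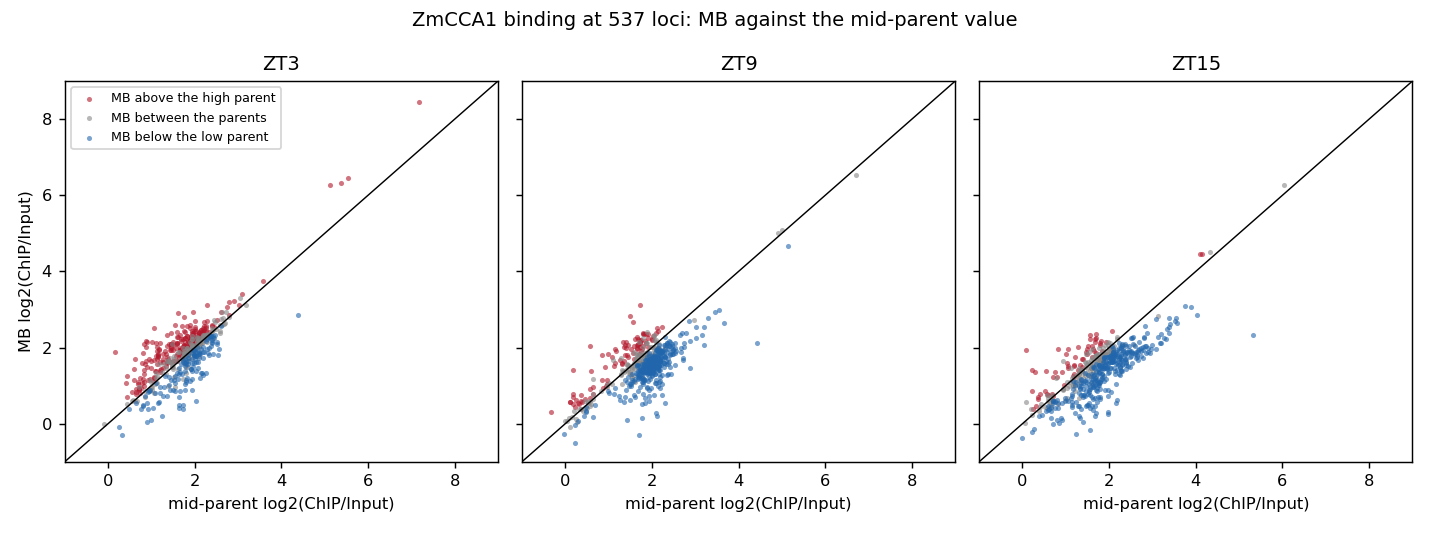
MB log2(ChIP/Input) on the vertical axis against the mid-parent log2(ChIP/Input) on the horizontal axis at 537 loci, with ZT3, ZT9 and ZT15 side by side; each point is a locus, coloured by the place of MB relative to the parents, and the line marks equal values. The cloud sits around the line at ZT3 (median difference 0.09) and mostly under it at ZT9 (-0.29) and ZT15 (-0.32).

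The order of loci in the hybrid resembled that in the mean of its parents, least closely at ZT9. Across the 537 loci, MB and mid-parent had a Pearson's r of 0.82, 0.75 and 0.78 and a Spearman's rho of 0.73, 0.53 and 0.74 in the order ZT3, ZT9 and ZT15. The parents themselves had an r of 0.77, 0.77 and 0.76 and a rho of 0.65, 0.53 and 0.68 with each other. These values describe loci within single lists, and the loci share their libraries. In contrast, the departure from mid-parent at a time point was nearly unrelated to that at another. MB minus mid-parent at ZT3 had an r of -0.08 with that at ZT9 and of 0.00 with that at ZT15, and ZT9 and ZT15 had an r of 0.12. Measurement error in single values also lowers such an r, so whether departures were stable at a locus could not be told without replicate values.

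Loci were called near mid-parent when MB lay within 0.25 of it, above the high parent when MB exceeded both parents, and below the low parent when MB was under both. At ZT3, 281 loci were near mid-parent, which is 52.3% of all loci (48.1 to 56.5%). Fewer were near later, with 169 loci or 31.5% at ZT9 (27.7 to 35.5%) and 188 loci or 35.0% at ZT15 (31.1 to 39.1%). The threshold fell in a dense part of the distribution. The loci just inside and just outside it differed from mid-parent by -0.2496 and 0.2509 at ZT3, by -0.2478 and 0.2501 at ZT9, and by 0.2493 and -0.2511 at ZT15. At ZT3, 44 loci lay at 0.20 to 0.25 in size and 42 at 0.25 to 0.30.

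Above the high parent were 240 loci at ZT3, 44.7% of the total (40.5 to 48.9%), 87 at ZT9, 16.2% (13.3 to 19.6%), and 62 at ZT15, 11.5% (9.11 to 14.5%). Below the low parent were 133 loci at ZT3, 24.8% (21.3 to 28.6%), 316 at ZT9, 58.8% (54.6 to 62.9%), and 325 at ZT15, 60.5% (56.3 to 64.6%). The remaining 164, 134 and 150 loci lay between the parents. Near mid-parent and outside the parental range are not exclusive, since parents with similar values leave a narrow range. At ZT3, 90 loci were near mid-parent and above the high parent, and 51 were near and below the low parent.

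Many departures were small. MB exceeded the high parent by over 0.25 at 83 loci at ZT3, 37 at ZT9 and 21 at ZT15. It lay below the low parent by over 0.25 at 56, 187 and 217 loci. A distance from mid-parent of over 1 was reached upwards at 15, 5 and 4 loci and downwards at 8, 31 and 38 loci.

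The balance of the calls moved with the level of the lists. After centring, 28.3%, 26.4% and 27.4% of loci were above the high parent at ZT3, ZT9 and ZT15, and 33.9%, 43.0% and 36.9% were below the low parent, while 57.4%, 42.6% and 44.3% were near mid-parent. The larger share near mid-parent at ZT3 than at ZT9 and ZT15, and an excess of loci below over above at ZT9 and ZT15, were seen with both treatments of the values.

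**Figure D2:**
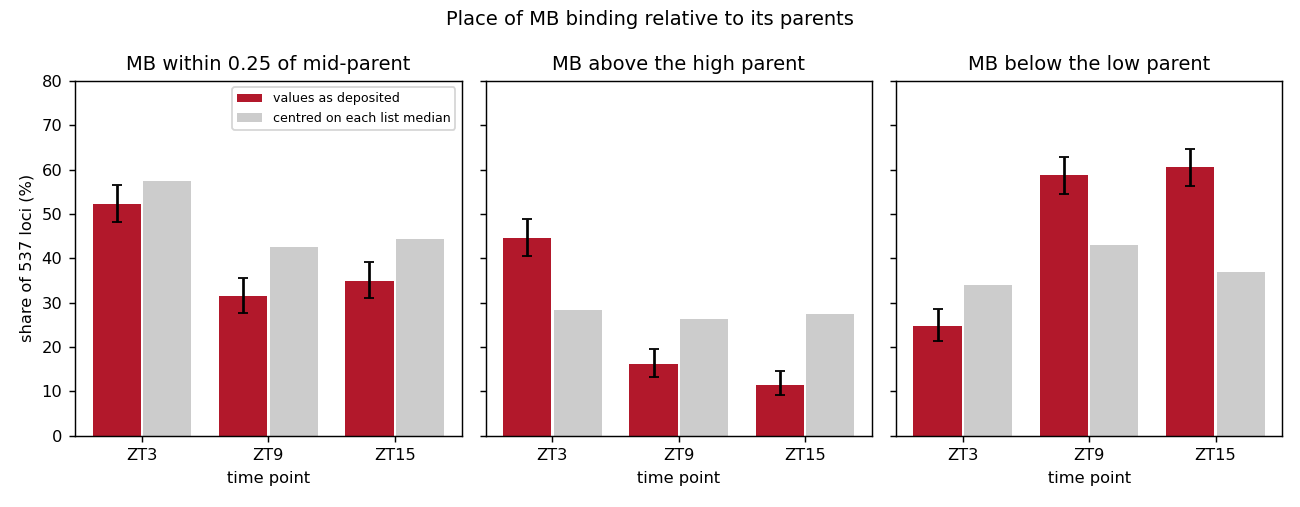
Share of the 537 loci in percent at ZT3, ZT9 and ZT15 with MB within 0.25 of mid-parent, above the high parent and below the low parent; red bars with 95% Wilson intervals are the values as deposited and grey bars the values centred on each list median. The red share above the high parent was 44.7% at ZT3 and 11.5% at ZT15, against grey shares of 28.3% and 27.4%.

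Of the 240 loci above the high parent at ZT3, 151 were below the low parent at ZT9 and 147 at ZT15. These are 62.9% and 61.3% of the 240, close to the 58.8% and 60.5% over all loci. The most common sequence was above at ZT3 and below at ZT9 and ZT15, with 104 loci (19.4%), of which 93 had a gene. Between the parents at ZT3 and below at ZT9 and ZT15 came next with 65 loci, and below at all time points with 42. MB stayed between the parents at all time points at 18 loci and above both at 5. After centring, the sequence above, below, below was found at 28 loci. MB was outside the parental range at 1 or more time points at 519 loci (96.6%), and near mid-parent at no time point at 117 loci, at 1 at 241, at 2 at 140 and at all 3 at 39.

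The time of highest binding differed accordingly between MB and the mid-parent profile. MB was highest at ZT3 at 391 loci (72.8%), at ZT9 at 105 and at ZT15 at 41, whereas the mid-parent profile was highest at ZT3 at 184, at ZT9 at 172 and at ZT15 at 181. Of the 181 loci where the mid-parent value was highest at ZT15, MB was highest at ZT3 at 137. Of the 172 with the mid-parent maximum at ZT9, 107 had the MB maximum at ZT3. The parents differed as well, with the maximum at ZT3 at 223 loci in B73 and 133 in Mo17. After centring, MB was highest at ZT3 at 157 loci and the mid-parent profile at 181, so the larger number at ZT3 in MB was present as deposited only. The median difference between the highest and lowest time point was 0.69 in MB, against 0.47 at mid-parent, 0.59 in B73 and 0.50 in Mo17. These ranges are as deposited, where the MB list median itself went from 1.52 at ZT3 to 0.95 at ZT15. Averaging parents with maxima at different times can also narrow the mid-parent range.

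Strongly bound loci lay further below mid-parent than weakly bound loci in the afternoon and evening. Loci were ordered by the mean parental level at the other time points, so that the value under comparison did not set the order, and split into 4 groups of 134 or 135. At ZT9 the median of MB minus mid-parent was -0.03 in the weakest group (-0.14 to 0.04) and -0.45 in the strongest (-0.52 to -0.39), and 39.3% and 83.6% of these groups were below the low parent. After centring these medians were 0.15 and -0.28 and these shares 23.7% and 69.4%, so the weakest group turned and the gap remained. At ZT15 the medians were -0.21 in the weakest and -0.43 in the strongest group. At ZT3 they were 0.15 and 0.08, with 46.7% of the weakest and 69.4% of the strongest loci near mid-parent.

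**Figure D3:**
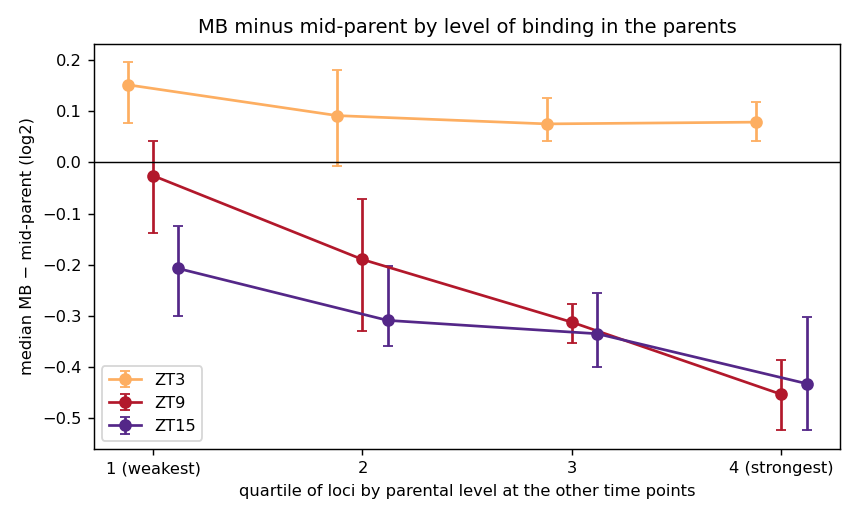
Median of MB minus mid-parent in log2 units on the vertical axis for 4 groups of loci ordered by parental level at the other time points on the horizontal axis; points are medians, bars 95% intervals over loci, and colours are ZT3, ZT9 and ZT15. The medians at ZT3 stay between 0.08 and 0.15, while those at ZT9 run from -0.03 in the weakest group to -0.45 in the strongest.

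The share near mid-parent also followed the gap between the parents at ZT3 and, less steeply, at ZT15. At ZT3 it was 59.8% of 261 loci where the parents differed by under 0.25, and 16.1% of 31 loci where they differed by 1 or more (64.8% and 32.3% of the same loci after centring). At ZT15 these shares were 37.2% of 172 and 21.4% of 42 (51.7% and 26.2% after centring). At ZT9 the corresponding shares were 30.8% of 214 and 34.4% of 32, with no such gradient. Where the parents differed by 0.5 or more, MB was closer to B73, its paternal parent, at 48.8% of 129 loci at ZT3 (40.4 to 57.4%), 56.5% of 170 at ZT9 (49.0 to 63.7%, but 45.5% after centring and 46.4% without the runs described below) and 34.8% of 184 at ZT15 (28.3 to 41.9%). MB was closer to the higher parent at 63.6% of these loci at ZT3, 31.8% at ZT9 and 25% at ZT15, but after centring at 54.3%, 46.8% and 51.9%, so the low share at ZT15 was present as deposited only. The share closer to B73 at ZT15 was 35.1% of 208 loci after centring, near that as deposited. This share differed widely with the parent that was higher as deposited only. At ZT15, MB was closer to B73 at 17.5% of 114 loci where B73 was the higher parent and at 62.9% of 70 loci where Mo17 was (32.5% and 36.6% after centring).

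Most loci lay in or near genes. A gene of the AGPv2 models was assigned to 444 loci, naming 378 genes, and 93 loci had none. The MB peak lay inside the gene at 256 loci, 2 to 10 kb upstream at 100, within 2 kb upstream at 35, over the gene start at 31 and over the whole gene at 22. At ZT15 the loci inside genes had a median of -0.44 and 65.2% of them were below the low parent. Loci without a gene had a median of -0.20 and 55.9% below. Loci upstream of a gene were similar, with -0.21 and 47% below at 2 to 10 kb and -0.23 and 57.1% within 2 kb. Loci over the gene start and over the whole gene had medians of -0.33 and -0.38, with 71.0% and 77.3% below. At ZT9 the shares near mid-parent were 25.4% inside genes and 51.6% without a gene. After centring, 46.9% and 28.0% were below at ZT15 and 33.6% and 47.3% near at ZT9.

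For the genes whose loci departed most, the values of the hybrid and of both parents are given together. Among loci above the high parent at ZT3, MB was furthest from mid-parent inside GRMZM2G074479 (AGPv2, chr7:8058011-8059392), with 1.87 in MB, against 0.82 in B73 and -0.50 in Mo17, a difference from mid-parent of 1.71. MB lay between its parents there at ZT9 and ZT15. The locus was picked on its ZT3 value, which favours smaller departures at other times. Inside toc34A (GRMZM2G159777, chr9:143799594-143800152), which encodes a receptor for protein import at the chloroplast outer envelope, the value at ZT3 was 2.51 in MB, against 1.29 in B73 and 0.85 in Mo17. At ZT9 the same locus had 1.52 in MB, under 2.17 in B73 and 1.59 in Mo17. The MB peak there was 558 bp wide, against 2065 bp in B73 and 2730 bp in Mo17, and the part of peak width in this value was not tested.

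Inside GRMZM2G022625 (chr3:200704205-200704983) the hybrid crossed both parents within the day. At ZT3 it had 2.18 in MB, against 1.60 in B73 and 0.13 in Mo17, and at ZT9 it had 0.19 in MB, against 1.90 in B73 and 2.31 in Mo17. The value at ZT15 was 0.71 in MB, against 1.47 in B73 and 2.04 in Mo17, so that MB was the highest of the 3 genotypes in the morning and the lowest afterwards. GRMZM2G060296 (spr1 in RefSeq) held a pair of adjacent MB peaks that met the same B73 and Mo17 peaks. At chr1:1967176-1968701 the value at ZT3 was 2.90 in MB, against 1.92 in B73 and 1.31 in Mo17. At chr1:1966134-1966760 the value at ZT9 was -0.28 in MB, against 1.61 in B73 and 1.77 in Mo17. Hence both extremes rest on 1 peak per parent.

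Of the 4 loci with a gene furthest below mid-parent at ZT3 and under both parents, 3 stayed below the low parent all day. The exception was GRMZM2G553687 (chr6:112270206-112270894), which had 0.40 in MB at ZT3, against 2.04 in B73 and 1.44 in Mo17, but 2.13 in MB at ZT9, between 1.59 in B73 and 2.20 in Mo17. GRMZM2G146697 (chr3:161847837-161849791) had 0.61 in MB at ZT3, against 2.63 in B73 and 1.43 in Mo17, while its other locus (chr3:161849851-161851114) had 1.98 in MB, above 1.47 in B73 and 1.43 in Mo17. GRMZM2G558539 (chr6:127778501-127779426) had 0.48 in MB at ZT3, against 2.22 in B73 and 1.23 in Mo17. The loci named first for these genes were nearer to mid-parent at ZT9 and ZT15 than at ZT3. They were picked on their ZT3 values, which favours smaller departures at other times. The remaining locus of the 4, upstream of GRMZM2G055151, is described next, and its call depended on which parental peak was matched.

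The most negative value at every time point was upstream of GRMZM2G055151 (chr5:209992549-209999374). It had 2.84, 2.12 and 2.33 in MB at ZT3, ZT9 and ZT15, against 4.51, 4.27 and 5.35 in B73 and 4.27, 4.60 and 5.27 in Mo17. The MB peak of 6825 bp spanned 2 peaks of each parent. With the parental peak of longest overlap in place of the highest value, MB minus mid-parent was 0.74, -0.01 and -0.23 instead of -1.54, -2.31 and -2.98, so this call depended on which parental peak was matched.

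Loci with MB far above the high parent at ZT9 were few. GRMZM2G043530 (chr1:209824064-209825413) had 2.04 in MB, against 0.77 in B73 and 0.38 in Mo17. GRMZM5G888810 (chr9:72764500-72764842) had 3.13 in MB, against 1.62 in B73 and 1.81 in Mo17, from an MB peak of 342 bp, and GRMZM2G048611 (chr8:62007721-62008254) had 2.84 in MB, against 1.54 in B73 and 1.45 in Mo17. At ZT15 MB was below both parents at the first locus and between them at the others, while at ZT3 it was above both parents at the first and second. The loci were picked on their ZT9 values, which favours smaller departures at other times. GRMZM2G379374, described next, was also among the 4 largest at ZT9 and was above both parents at ZT15 as well. Far below the low parent at ZT9 was GRMZM2G123987 (chr9:136073292-136074664), with 0.29 in MB, against 2.03 in B73 and 2.15 in Mo17.

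GRMZM2G379374 (chr4:223838236-223838826) was the locus with the largest mean excess among the 5 where MB was above both parents at all time points. It had 2.20, 1.40 and 1.93 in MB at ZT3, ZT9 and ZT15, against 2.01, 0.01 and -0.13 in B73 and 1.80, 0.35 and 0.28 in Mo17. Thus all 3 genotypes were bound in the morning, and MB alone kept a value above 1 afterwards. GRMZM2G333623 (chr3:13766649-13767102) was the only other of these 5 with a gene, by smaller margins, with 1.44, 2.44 and 1.36 in MB, against 1.14, 1.92 and 1.04 in B73 and 1.30, 2.35 and 0.46 in Mo17.

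At ZT15, GRMZM2G132978 (chr8:172249378-172249877) had 1.40 in MB, against -0.47 in B73 and 0.93 in Mo17. GRMZM2G161493 (chr6:86774471-86775394) had 1.97 in MB, against 1.01 in B73 and 0.62 in Mo17, after 0.74 in MB at ZT9, against 1.96 in B73 and 2.12 in Mo17. GRMZM2G050647 (chr10:115928484-115929212) had 1.97 in MB at ZT15, against 0.40 in B73 and 1.71 in Mo17, while the other locus of this gene (chr10:115925915-115927132) had 1.49 in MB, against 2.18 in B73 and 2.31 in Mo17. The loci first named were among the 62 where MB exceeded both parents in the evening. In the opposite direction, GRMZM2G368206 (chr5:210515704-210516710) had -0.16 in MB at ZT15, against 1.49 in B73 and 1.62 in Mo17. GRMZM5G831471 (chr9:150201892-150204570) had 0.26 in MB, against 1.68 in B73 and 2.27 in Mo17, and GRMZM2G046355 (chr3:2514295-2515603) had 0.30 in MB, against 1.79 in B73 and 2.15 in Mo17. At these 3 loci the ChIP signal of MB was close to its input in the evening, while both parents retained a peak value well above 1.

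**Figure D4:**
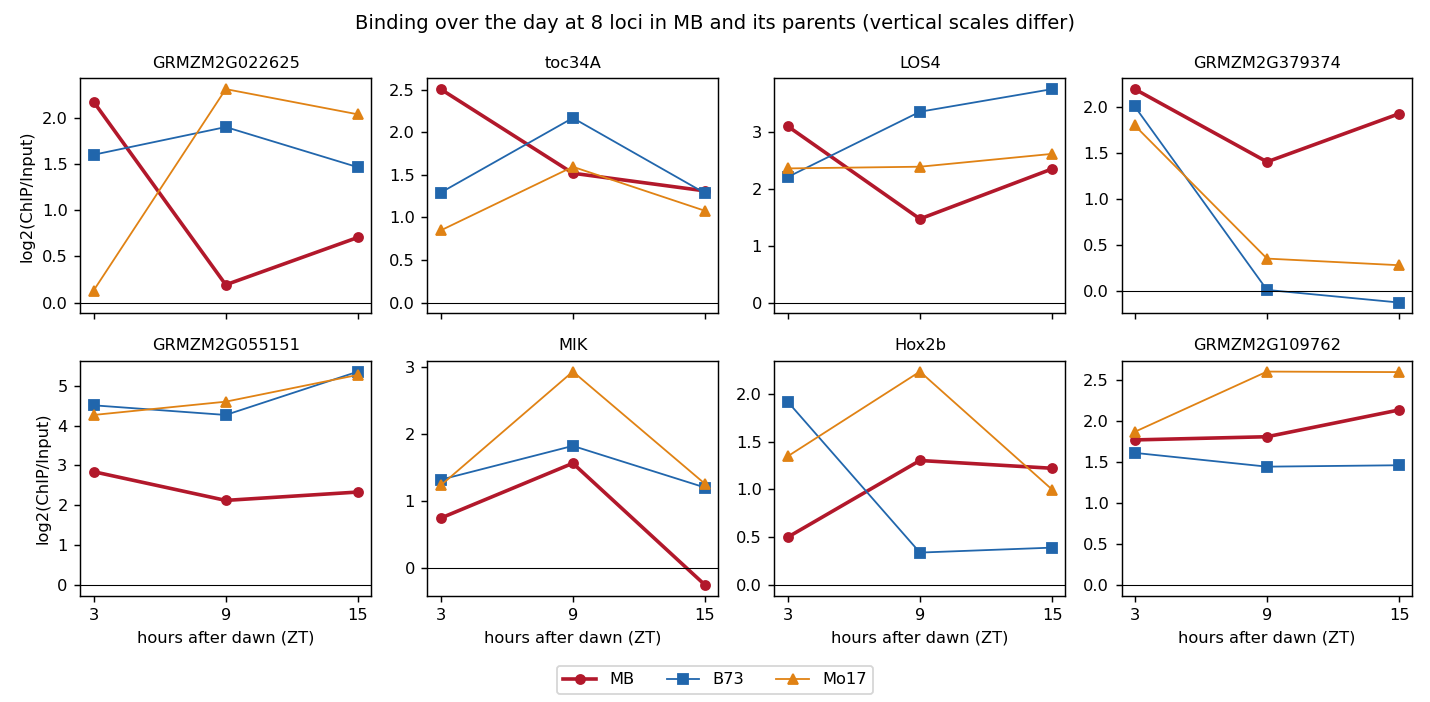
log2(ChIP/Input) on the vertical axis at ZT3, ZT9 and ZT15 on the horizontal axis for 8 loci, with MB in red, B73 in blue and Mo17 in orange; each point is the single deposited value, and vertical scales differ between panels. MB is the highest genotype at ZT3 and the lowest at ZT9 at GRMZM2G022625 (2.18 and 0.19), the highest throughout at GRMZM2G379374, and between its parents throughout at GRMZM2G109762.

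Additive binding throughout the day was found at few loci with clearly different parents. Of the 39 loci near mid-parent at all time points, 18 had a gene and MB lay between its parents throughout at 10. Among those with a gene, the largest mean parental gap was upstream of GRMZM2G109762 (chr9:72861954-72862900), with 1.77, 1.81 and 2.13 in MB, against 1.61, 1.44 and 1.46 in B73 and 1.87, 2.60 and 2.59 in Mo17. Inside GRMZM2G069009 (chr3:36834871-36836720) the values were 1.87, 1.53 and 1.27 in MB, against 2.34, 0.90 and 1.70 in B73 and 1.56, 1.95 and 1.31 in Mo17. MB followed the mean there although the parents exchanged order between ZT3 and ZT9. Upstream of GRMZM2G100634 (chr2:229115414-229116349) and GRMZM2G036833 (chr6:50944174-50945679), MB lay between a lower B73 and a higher Mo17 at each time point. Other loci of the same genes departed more. MB minus mid-parent reached -0.45 at ZT3 for GRMZM2G100634, -0.77 at ZT9 and 0.43 at ZT15 for GRMZM2G036833, and -0.31 at ZT9 for GRMZM2G109762.

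Of 17 listed genes (7 for the clock, 9 for carbon fixation and 1 with ChIP-qPCR primers only), 4 had an MB peak and 2 had a locus in all 3 genotypes, with 3 loci. GRMZM2G448142 encodes an ATP synthase β-subunit. Inside it (chr1:203906234-203907363) the values were 2.18, 1.76 and 1.93 in MB, against 1.96, 2.23 and 2.69 in B73 and 2.03, 2.18 and 2.22 in Mo17. Its upstream locus (chr1:203910864-203913335) had 1.83, 1.37 and 1.59 in MB, against 1.95, 2.07 and 2.44 in B73 and 1.75, 1.70 and 1.92 in Mo17. GRMZM2G427369 encodes a photosynthetic reaction centre protein (chr5:209966474-209967176) and had 2.25, 1.29 and 1.67 in MB, against 2.13, 1.61 and 2.38 in B73 and 2.24, 1.46 and 2.35 in Mo17. At all 3 loci MB was within 0.25 of mid-parent at ZT3 (52.3% of all loci) and below both parents at ZT9 and ZT15 (58.8% and 60.5% of all loci). In land plants the β-subunit of the plastid ATP synthase and reaction centre proteins are commonly encoded in the chloroplast genome, and whether reads of such copies reached these loci was not tested.

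Another 18 genes were described because RefSeq gives them a name with a known role, a choice made with results known, and together they hold 19 loci. Their medians of MB minus mid-parent were -0.03, -0.15 and -0.18, against 0.09, -0.29 and -0.32 over all loci. Among the 19 loci, 5, 1 and 4 were above the high parent (44.7%, 16.2% and 11.5% over all loci) and 9, 9 and 10 below the low parent (24.8%, 58.8% and 60.5% over all loci) at ZT3, ZT9 and ZT15. The 7 loci of RNA processing genes had medians of -0.03, -0.14 and -0.30. LOS4, named for an Arabidopsis RNA helicase of mRNA export, was the most extreme (chr1:12145316-12145689), with 3.11, 1.48 and 2.36 in MB, against 2.21, 3.37 and 3.76 in B73 and 2.37, 2.40 and 2.62 in Mo17. CRS2, a splicing factor for chloroplast introns, was below both parents at all time points, with 0.97, 0.88 and 0.89 in MB, against 1.24, 1.61 and 1.45 in B73 and 1.33, 1.19 and 2.51 in Mo17 (chr8:12557936-12559024). In contrast, crs1, which also acts in chloroplast splicing, lay between its parents throughout (chr1:220990076-220990754), with 2.09, 1.87 and 0.60 in MB, against 2.11, 1.24 and 0.55 in B73 and 0.87, 1.91 and 0.95 in Mo17. The splicing factor genes SR45_1, SR45_2 and RSZ28 had differences from mid-parent of -0.70 to 0.35 over the time points.

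Genes of the chloroplast and of pumps had 5 loci. The pair of loci of ftr1, which encodes a subunit of ferredoxin-thioredoxin reductase, had 0.65 and 1.29 in MB at ZT15, against 2.40 and 2.51 in B73 and 1.18 and 1.75 in Mo17, so both were under both parents in the evening. A locus inside vpp2, a vacuolar proton pump gene (chr9:78414056-78414975), had 0.54 in MB at ZT15, against 2.02 in B73 and 2.30 in Mo17. MSRB1, a methionine sulfoxide reductase gene whose Arabidopsis namesake acts in plastids, lay between its parents at all time points.

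Genes for transcription and signalling, with the motor protein gene myosin2 placed beside them, had 7 loci spread in both directions, with medians of -0.46, -0.23 and 0.01. The locus of myosin2 itself was below both parents at all time points, with differences from mid-parent of -0.60, -0.23 and -0.47. Hox2b, a homeobox gene (chr8:174500535-174501676), had 0.50, 1.30 and 1.22 in MB, against 1.92, 0.34 and 0.39 in B73 and 1.35, 2.23 and 0.999 in Mo17. MB was thus under both parents at ZT3 and over both at ZT15. MIK, a protein kinase gene (chr7:151736621-151737788), had 0.74, 1.56 and -0.26 in MB, against 1.31, 1.82 and 1.20 in B73 and 1.23, 2.93 and 1.25 in Mo17, below both at all time points. The locus of Med12a, a subunit of the Mediator complex, was above both parents at ZT9 only, with 1.98 in MB, against 0.92 in B73 and 1.90 in Mo17. The locus upstream of RELK3 had 0.14 in MB at ZT9, against 1.52 in B73 and 2.01 in Mo17. The locus of ipk1A, which encodes an inositol phosphate kinase of phytate synthesis, had 2.24 in MB at ZT15, against 1.74 in B73 and 1.66 in Mo17.

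Where a gene held several loci, they could be compared with each other. There were 55 such genes with 121 loci. At ZT3 the loci of 20 genes all lay on the same side of mid-parent, compared with 47 genes at ZT9 and 41 genes at ZT15. At ZT3, MB was higher at every locus of 19 of these genes and lower at every locus of 1, where MB was higher at 63.5% of all loci. After centring, these ZT3 counts were 12 and 13, so the lean towards higher values was present as deposited only. At ZT9, MB was lower at every locus of 45, where MB was lower than mid-parent at 72.6% of all loci, and after centring this held for 33 genes. The median spread between loci of a gene was 0.33, 0.33 and 0.30, larger than the median departure at ZT3 and about as large as those at ZT9 and ZT15. At GRMZM2G105976 on chromosome 9, which had 3 loci, the differences were 0.15 to 0.37 at ZT3, -0.26 to -0.21 at ZT9 and -0.31 to -0.14 at ZT15.

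Many loci lay close together. Runs of 8 or more loci with neighbours starting within 100 kb, defined with the data in view, held 164 loci (30.5%) in 11 runs. The run with the most loci, chr9:72725009-73003368, held 39 loci assigned to 25 genes, and its medians were 2.09, 1.62 and 1.63 in MB, against 1.85, 1.63 and 1.67 in B73 and 2.14, 2.27 and 2.05 in Mo17. The next, chr1:234462401-234739422, held 33 loci, with medians of 2.00, 1.39 and 1.47 in MB, against 1.43, 1.53 and 1.43 in B73 and 1.96, 1.97 and 1.79 in Mo17. In both of these runs B73 had the lower parental median at all time points. As deposited, the MB median was closer to that of Mo17 at ZT3 and closer to that of B73 at ZT9 and ZT15. This order depended on the list levels. With each list median taken off, the MB median was closer to Mo17 at ZT15 in both runs. At ZT3 it was then closer to B73 in the run on chromosome 9. In runs, 68.9% of loci were near mid-parent at ZT3, against 45.0% of the 373 loci elsewhere (72.0% and 50.9% after centring). Whether reads of similar sequences elsewhere in the nuclear or organelle genomes reached the loci of the runs was not tested.

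Runs also differed from each other in the evening. In 3 of them, on chromosome 5 (chr5:209939983-210014723, 15 loci) and chromosome 1 (chr1:203882556-203931329, 13 loci, and chr1:130609503-130912034, 11 loci), the median of MB minus mid-parent was 0.09, 0.05 and 0.09 at ZT3 and -0.66, -0.49 and -0.75 at ZT15. At ZT15 the medians of these runs were 1.84, 1.78 and 1.80 in MB, against 2.53, 2.57 and 2.63 in B73 and 2.34, 2.18 and 2.27 in Mo17. All loci of the runs of 15 and 11 were below the low parent at ZT9 and ZT15. The loci of the ATP synthase gene belong to the run of 13, and that of the reaction centre gene to the run of 15. By contrast, a run of 8 loci without a gene on chromosome 4 (chr4:225087560-225164325) had medians of 0.90, 0.78 and 0.82 in MB, against 1.12, 0.48 and 0.66 in B73 and 0.74, 0.46 and 0.63 in Mo17, and 5 of its loci were above the high parent at ZT9.

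The 4 loci with the highest MB values were named after these were seen, which favours an excess of MB at the time of its maximum, and are given as a description. The highest was a locus without a gene (chr1:62370845-62371897), with 8.46, 6.52 and 6.28 in MB, against 7.25, 6.47 and 6.30 in B73 and 7.08, 6.94 and 5.78 in Mo17. The locus upstream of GRMZM2G066485 (chr6:138678780-138680138) had 6.46 in MB at ZT3, against 5.53 in B73 and 5.54 in Mo17. Upstream of GRMZM2G168077 (chr8:166826527-166828574) and GRMZM2G020929 (chr6:140854235-140855383), the values at ZT3 were 6.33 and 6.27 in MB, against 5.47 and 5.27 in B73 and 5.28 and 4.99 in Mo17. At all 4 of these loci MB exceeded mid-parent by 0.93 to 1.29 at ZT3, and by -0.48 to 0.35 at ZT9 and ZT15.

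Peak width moved with some of the large departures. The median width was 1284 bp in MB, against 1317 bp in B73 and 1225 bp in Mo17, and 466 loci paired a single peak of each list with no other. Where the MB peak was under 50% of the mean parental width (30 loci), 23.3% were near mid-parent at ZT3 and the median was 0.24, against 54.0% and 0.10 at the 483 loci with a width ratio of 0.5 to 2. Across all loci Spearman's rho between the width ratio and MB minus mid-parent was -0.06, -0.08 and -0.03 at ZT3, ZT9 and ZT15.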

How the data were processed

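ZmCCA1 ChIP-seq peak lists of MB, B73 and Mo17 were used. Per the methods and the submitters' processing notes, the authors mapped B73 reads to the B73 genome (AGPv2, release 5b.60), Mo17 reads to a Mo17 assembly guided by it and hybrid reads to both, keeping the best alignment. Unique concordant pairs without duplicates were down-sampled to the lowest library, and peaks were called with MACS2 2.0.1 (p-value cutoff 0.001), kept if they overlapped in both replicates, and merged over time points. The deposited values are log2(ChIP/Input), 1 per genotype and time point. How replicates were combined is not given in the sources used here, the read depth behind a peak is unknown, and what mapping to 1 or 2 genomes does to the levels was not tested. No value column was left unused (0).

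Loci, classes and medians were computed as described in the report, with no test, since no replicate values were given. The members, gene lists and alternatives were chosen with earlier results of these data known. Genes named were, at each time point, the 4 largest differences above the high parent and the 4 most negative below the low parent among loci with a gene, the 3 with the largest mean difference above (2 existed) and below at all time points, the 4 near mid-parent throughout with the largest parental gap, and all loci of the 17 listed genes. The planned groups by product description could not be applied, because the RefSeq table used for names (131 of 378 genes matched) holds none, and the 18 genes grouped by role were picked by RefSeq name instead. Alternatives were centring on list medians, a reciprocal overlap of 50%, a linear mid-parent, the parental peak of longest overlap, one-to-one loci, a minimum highest value of 1.5, the same gene in all lists, a band of 0.5 and a margin of 0.25. Leaving out runs and centring on list means were chosen after seeing the data. On simulated lists of 600 peaks, the class was recovered at 100% of 130 loci. No simulated locus was both near mid-parent and outside the parental range, and none had several parental peaks. The simulation therefore checks the code only. Python 3.11.15, numpy 2.4.6, pandas 2.3.3, scipy 1.17.1 and matplotlib 3.10.9 were used.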

Additional observations from a re-analysis of the deposited data

Results flagged for a closer look

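MB departed from mid-parent in opposite directions over the day, with a median of MB minus mid-parent of 0.093 at ZT3, against -0.29 at ZT9 and -0.32 at ZT15. Without replicate values this difference between time points was not tested, and it was mostly gone after centring on list medians.

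At 5 loci MB was over 1 above the mid-parent at a time point and over 1 below it at another, and beyond both parents at each. The difference was 1.25 at ZT3 and -1.25 at ZT9 for GRMZM2G049568, and 1.02 at ZT3 and -1.07 at ZT9 for GRMZM2G377761. It was 1.31 at ZT3, -1.92 at ZT9 and -1.05 at ZT15 for GRMZM2G022625. It was 1.05 at ZT3 and -1.22 at ZT15 for GRMZM5G889372, and -1.30 at ZT9 and 1.15 at ZT15 for GRMZM2G161493. These opposite directions were not tested either.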

How the results depend on the processing

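No paired analysis was possible because the lists hold 1 value per genotype and time point, and for the same reason no replicate could be left out. Values at ZT3, ZT9 and ZT15 follow that order here. Centring on list medians gave medians of MB minus mid-parent of -0.015 (turned at ZT3), -0.12 and -0.018, near shares of 57.4%, 42.6% and 44.3%, above shares of 28.3%, 26.4% and 27.4%, below shares of 33.9%, 43.0% and 36.9%, and 45.5% closer to B73 at ZT9. Centring on list means, chosen after seeing the data, gave medians of 0.049, -0.13 and -0.035, near shares of 42.5% and 44.9% at ZT9 and ZT15, above shares of 36.3%, 24.2% and 26.8%, and below shares of 42.6% and 38.4% at ZT9 and ZT15. By construction, a band of 0.5 gave near shares of 78.6%, 65.2% and 62.2%, and a margin of 0.25 gave above shares of 15.5%, 6.89% and 3.91% and below shares of 10.4%, 34.8% and 40.4%. A reciprocal overlap of 50% (378 loci) gave a near share of 59.0% and 39.2% closer to B73 at ZT3. A highest value of at least 1.5 (445 loci) gave, at ZT9, near, above and below shares of 25.4%, 12.8% and 65.2% and a median of -0.33, and at ZT15 a near share of 31.0% and a median of -0.35. The same gene in all lists (430 loci) gave a near share of 26.7% and a median of -0.33 at ZT9. Without runs (373 loci, chosen after seeing the data) the near share at ZT3 was 45.0% and the share closer to B73 at ZT9 was 46.4%. The linear mid-parent, one-to-one loci and the parental peak of longest overlap kept every share and median within its interval. Of named loci, GRMZM2G055151 turned to 0.74 at ZT3 with the longest overlap and with the reciprocal overlap. GRMZM5G831471 turned to 0.18 at ZT3 with the longest overlap. Many named loci did not meet the reciprocal overlap, so it gave no value for them. These included GRMZM2G074479, toc34A, GRMZM2G022625, both loci of GRMZM2G060296, GRMZM2G553687, the first-named locus of GRMZM2G146697, GRMZM2G043530, GRMZM5G888810 and GRMZM2G048611. The cause of the other shifts was not tested.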
